A study of Homo sapiens with 6 samples.

Results

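The genes examined carry EIF or EEF symbols and were counted in Calu-6, a human lung carcinoma cell line. Most are cytosolic translation initiation factors (EIF symbols) or elongation factors (EEF symbols), and some EEF symbols belong to methyltransferases. The genes were taken by symbol, under a rule chosen with earlier results of these data known. It took every gene whose name begins with EIF or EEF and a digit. Left out were processed pseudogenes, the EIF2AK kinases, the EIF4EBP binding proteins and hyphenated read-through names. This gave 51 genes of the 10072 in the table. Their 227 transcript models took 48294 counts, 0.712% of all counts. The 6 long-read cDNA libraries came from cells given 10 nM siRNA for 48 h: 3 libraries received a control siRNA (siControl) and 3 an siRNA against the TERT Delta 2-4 splice variant (siDelta2-4). The labels gave the cells of both groups a WT genotype, whereas the count columns of both groups carried the word Empty, which the study used for cells that stably hold an empty Flag-V5 vector. TERT itself had no row among the deposited counts, so the knockdown could not be checked from them. All libraries came from 1 cell line, and the study calls those of a group biological replicates. Neither its methods nor the labels say whether they were separate cultures, so p-values measure only the spread between these libraries.

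Translation of an mRNA begins when the small ribosomal subunit, loaded with EIF2, GTP and the initiator tRNA and bound by EIF1, EIF1A, EIF3 and EIF5, is brought to the capped 5′ end by the EIF4 factors and scans to a start codon. During elongation, EEF1A delivers each aminoacyl-tRNA, the EEF1B complex recharges EEF1A with GTP, and EEF2 moves the ribosome along by 1 codon. Many mRNAs of this machinery carry a 5′ terminal oligopyrimidine tract (TOP), a cytosine at the first base followed by a run of pyrimidines, through which mTOR signalling controls their translation. TERT is the catalytic subunit of telomerase, and Delta 2-4 is a variant of its mRNA that skips exons 2 to 4.

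The start sites of 7 members are shown first, to let a reader see which of the genes described below begin with such a tract and which do not. Each line gives 30 bases before and 20 bases from the start, from RefSeq on GRCh38.p14, read 5′ to 3′ on the gene's strand. Capitals mark a run of pyrimidines that opens with C at the first transcribed base.
EEF1A1, chr6:73521013-73521062, minus strand: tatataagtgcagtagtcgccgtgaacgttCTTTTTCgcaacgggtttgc
EEF1B2, chr2:206159865-206159914, plus strand: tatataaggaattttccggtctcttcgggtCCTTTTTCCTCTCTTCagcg
EEF2, chr19:3985444-3985493, minus strand: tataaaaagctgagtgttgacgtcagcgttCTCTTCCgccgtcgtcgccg
EIF4A2, chr3:186783547-186783596, plus strand: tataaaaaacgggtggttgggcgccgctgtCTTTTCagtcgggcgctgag
EIF3F, chr11:7987307-7987356, plus strand: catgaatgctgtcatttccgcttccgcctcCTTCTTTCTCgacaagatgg
EIF1, chr17:41688855-41688904, plus strand: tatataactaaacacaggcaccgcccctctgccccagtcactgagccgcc
EIF1AX, chrX:20141819-20141868, minus strand: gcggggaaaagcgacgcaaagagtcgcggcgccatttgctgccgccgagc
The first 3 are elongation factors, EIF4A2 and EIF3F are members that were higher after siDelta2-4 with such a run, and EIF1 and EIF1AX are members without one. EEF1B2 has another RefSeq start, shown by the window chr2:206159579-206159628, without such a run. Of the 42 members with a RefSeq start, 12 held C followed by at least 4 pyrimidines at a start, 28.6%, against 5.14% of the 27305 genes with an entry. The letters TATAA on the gene's strand, searched between 40 and 16 bases before the start, were found in 7 members, 16.7%, against 4.94% of all genes. On the other strand they were found in 1 member, against 2.18% of all genes. Such matches describe the letters and are not mapped start sites in Calu-6 cells. No entry was matched for EEF1D, EIF3E, EEF2KMT, EIF3L, EIF2S2, EIF3CL, EIF3H, EEF1AKMT1 and EIF3G.

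The genes of the EEF1 group dominated the counts. Groups follow the symbols, so EEF1E1, a scaffold of aminoacyl-tRNA synthetases, is in EEF1, and EIF2A and EIF2D are with EIF2. EEF1A1, EIF1, EEF1G and EEF1B2 together held 72.5% of the members' counts, and the 5 EEF1 genes alone held 58.6%. The group of EIF1, EIF5 and EIF6 genes held 21.4%, EIF3 subunits 14.4%, EIF4 factors 2.38%, EIF2 with its exchange factor EIF2B 2.17%, EEF2 0.580% and the methyltransferases named after their factor 0.487%. Levels of different genes are compared here per kilobase of the counted models' annotated length, in CPM per kb (CPM, the usual per-million scale, relates a gene's counts to the total of its library). On that scale EEF1B2 stood at 979, EEF1G at 713 and EEF1A1 at 650, and EIF1, which guards start-codon choice, stood at 574. EEF2, with 280 counts in all, stood at only 22.0. The 9 tested subunits of EIF3, which form 1 complex, ranged from 218 for EIF3K to 9.55 for EIF3F, a ratio of 22.9. These levels depend on the annotated length, which was 6668 nt for EIF3F and 782 nt for EIF3K. A long read is counted once whatever its length, so this scale lowers genes with long models. Without division by length, mean CPM in siControl was 47.1 for EIF3F and 175 for EIF3K. On CPM, EEF1A1 (1928 in siControl) stood above EEF1B2 (840).

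Low counts limited what could be read from the rest of the list, and the reason for them was not tested. The libraries held between 1037468 and 1309241 counts. A filter on low counts left 31 members, which had 57 to 13956 counts each over the 6 libraries, and the other 20 had 1 to 59. EIF3B, EIF4A3 and EIF5B had no count in siControl and at most 3 in siDelta2-4, which is within the limit that a count of 0 allows. The table itself lists only models with at least 1 count in siDelta2-4, so a member seen in siControl alone could not appear. With no filter on low counts, the median log2 change of siDelta2-4 against siControl was 0.19 over all 10072 genes. Fewer than 10 counts were recorded for 5 members in all. EIF3A, EIF4G1 and EEF1A2 had no row among the deposited counts, so nothing can be said of them.

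**Figure D1:**
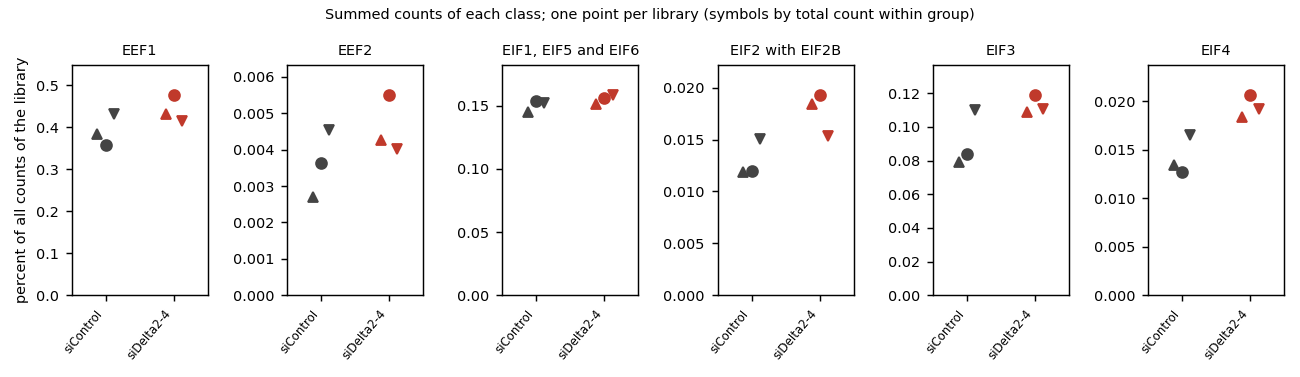
Percent of all counts of a library held by each class of translation factor (y axis from 0, a scale of its own in each panel) in the siControl and siDelta2-4 libraries. Each point is 1 library, with the upward triangle, circle and downward triangle for the highest, middle and lowest total of its group. The groups do not overlap for EIF2 with EIF2B and for EIF4, and they overlap in the other 4 panels.

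As a share of each library, the members took 0.638%, 0.627% and 0.733% of counts in the siControl libraries of highest, middle and lowest total. They took 0.726%, 0.799% and 0.736% in the siDelta2-4 libraries of lowest, middle and highest total. The groups overlapped, with means of 0.666% ± 0.0582 and 0.754% ± 0.0395 (SD, n = 3). EIF3 subunits took 0.0789%, 0.0842% and 0.110% in siControl and 0.111%, 0.119% and 0.109% in siDelta2-4, in the same order of libraries. The siControl library of lowest total therefore lay among the siDelta2-4 libraries for this complex. EIF4 factors took 0.0142% ± 0.00199 in siControl and 0.0194% ± 0.00111 in siDelta2-4 without overlap. EIF2 with EIF2B took 0.0129% ± 0.00181 and 0.0177% ± 0.00207, also without overlap. These shares were not tested, since they are sums over a chosen list. They rest on library totals alone, a scale on which the median log2 change of all tested genes was 0.09. It was 0.03 on the scaled totals used in the tests below. Taken singly on those scaled totals, 14.1% of all genes tested were without overlap on the higher side.

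Gene by gene, 5 members were higher after siDelta2-4 and 0 were lower at an adjusted p under 0.1 (edgeR quasi-likelihood test, Benjamini-Hochberg adjustment over 3888 genes). The 5 were EIF3F, EIF2S2, EIF3H, EIF4A2 and EIF1AX, all initiation factors. Over all genes tested, 7.00% were called higher and 5.97% lower (272 and 232 genes, but 361 and 152 when libraries were scaled by their totals alone and 93 and 161 by DESeq2's Wald test), so the members' 5 of 31, 16.1%, can be read against 7.00%. At an unadjusted p under 0.05, 7 members were higher and 0 lower, against 12.9% and 10.2% of all genes. The log2 fold change was above 0 in 25 of the 31, against 53.9% of all genes, and its median was 0.20, against 0.03 over all genes. After removal of the trend on transcript length described below, 21 of the 31 were above 0 with a median of 0.05, and 3.23% of members were called higher, against 5.20% of all genes. With DESeq2's Wald test the members called were EIF3F, EIF2S2 and EIF3H, and none was lower. The count of members called moved with each library left out. Without a siControl library it was 2 (highest total), 1 (middle) and 10 (lowest), which is 5.88%, 2.94% and 29.4% of members tested against 3.76%, 2.79% and 13.5% of all genes. Without a siDelta2-4 library it was 3 (lowest), 2 (middle) and 2 (highest), which is 8.82%, 6.25% and 6.06% against 4.16%, 2.60% and 4.04%. Without the siControl library of middle total the members' share was thus near that of all genes.

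**Figure D2:**
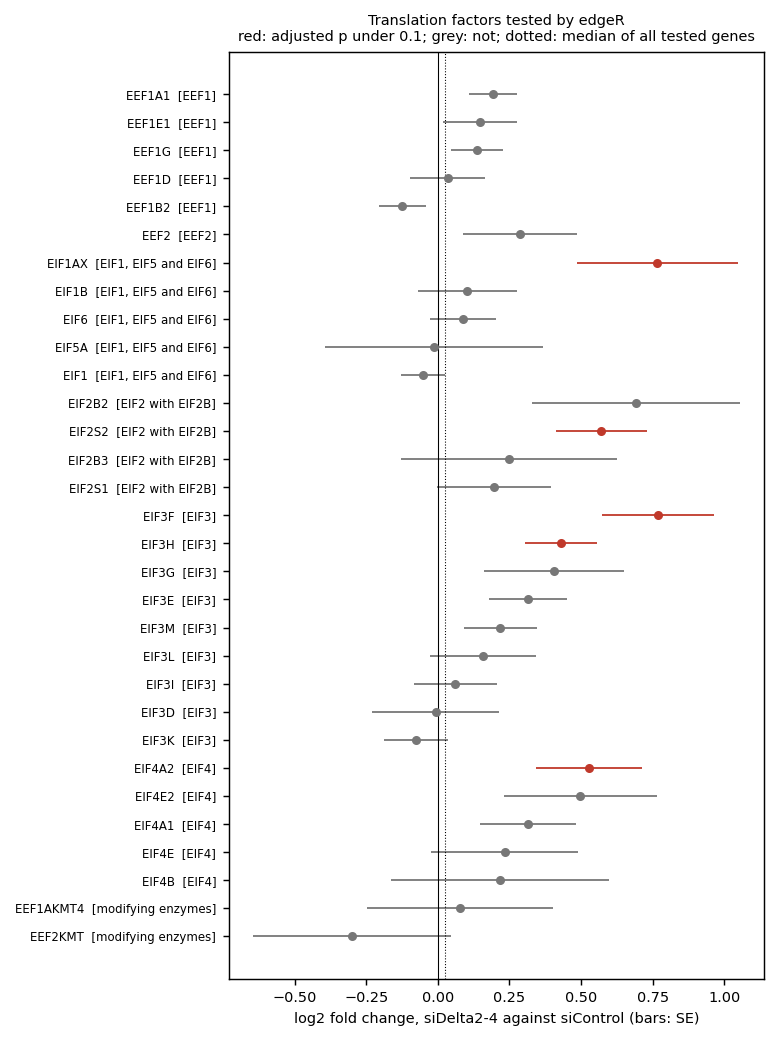
Log2 fold change of siDelta2-4 against siControl for the 31 members tested, grouped by class, with bars of 1 SE. Red marks the 5 members with an edgeR adjusted p under 0.1, all to the right of 0, and the dotted line is the median of all genes tested, 0.03.

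EIF3F, a regulatory subunit of the EIF3 scaffold, is on chromosome 11 (GRCh38, 7970251 to 8001862, plus strand). Its level in CPM, on TMM-scaled totals, was 30.2, 45.1 and 66.1 in the siControl libraries of highest, middle and lowest total. It was 70.2, 82.9 and 87.5 in the siDelta2-4 libraries of lowest, middle and highest total. Every siDelta2-4 library was above every siControl library, and the siControl libraries were themselves spread widely (47.1 ± 18.0 against 80.2 ± 8.93, SD, n = 3). The fold change was 1.70, a log2 change of 0.77 ± 0.19 (SE, edgeR adjusted p = 0.0140). It was 0.52 with an adjusted p of 0.107 without the siControl library of highest total. No gene on the opposite strand within EIF3F was counted.

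EIF3H, which pairs with EIF3F as the other MPN-domain subunit of the complex, lies on chromosome 8. Its CPM was 165, 143 and 220 in siControl and 254, 229 and 229 in siDelta2-4. The groups did not overlap, although the siControl library of lowest total was close to the siDelta2-4 libraries. The mean went from 176 ± 39.9 to 237 ± 14.1 (SD, n = 3), a log2 change of 0.43 ± 0.13 (SE, edgeR adjusted p = 0.0338). It passed in 14 of 18 alternative analyses, and not without the siControl library of middle total or the siDelta2-4 libraries of lowest or middle total, nor with the trend on transcript length removed. An unnamed gene, ENSG00000289382, overlaps EIF3H on the opposite strand, with 1241 counts against 1400, and was also higher (log2 change 0.44, edgeR adjusted p = 0.0686). The overlap is one of gene bounds, and shared exons were not checked. Use of strand in counting is not given in the sources used here, and whether the pair shares reads was not tested.

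Of the other 7 subunits of EIF3 tested, none passed. EIF3E, the most counted subunit, had 166, 161 and 257 CPM in siControl and 223, 270 and 233 CPM in siDelta2-4. These overlapped, because the siControl library of lowest total was above 2 of the siDelta2-4 libraries (log2 change 0.31 ± 0.14, SE, edgeR adjusted p = 0.154). Without that siControl library EIF3E passed, with a log2 change of 0.54 (edgeR adjusted p = 0.00022). EIF3E also shares its locus with an opposite-strand gene, ENSG00000253754, which had 1226 counts and was higher (log2 change 0.44, edgeR adjusted p = 0.0838). EIF3G had 19.5, 19.2 and 23.0 CPM in siControl and 32.8, 26.0 and 23.8 in siDelta2-4 without overlap, but with 162 counts its adjusted p was 0.327 (edgeR, log2 change 0.41 ± 0.24, SE). P2RY11 overlaps EIF3G on the opposite strand, with 148 counts and a log2 change of 0.02. EIF3K, a small peripheral subunit, was at 181, 180 and 163 CPM in siControl and 179, 166 and 154 in siDelta2-4, which overlapped (log2 change -0.07). EIF3M, EIF3L, EIF3I and EIF3D had log2 changes between -0.01 and 0.22. Over the 9 tested subunits the median was 0.22, with 7 above 0.

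EIF2S2 is the beta subunit of EIF2, the GTPase that carries the initiator tRNA to the ribosome (chromosome 20, 34088309 to 34112243, minus strand). Its CPM was 56.5, 49.9 and 65.1 in siControl and 78.7, 81.3 and 94.4 in siDelta2-4. The groups did not overlap (57.2 ± 7.65 against 84.8 ± 8.43, SD, n = 3; log2 change 0.57 ± 0.16, SE, edgeR adjusted p = 0.0240). It passed in 15 of 18 alternatives, and not without the siControl library of middle total or the siDelta2-4 library of highest total, nor with the length trend removed. RALY, which encodes an RNA-binding protein, overlaps it on the opposite strand with 364 counts against 485 and was higher too (log2 change 0.81, edgeR adjusted p = 0.0171).

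The partner subunits did not pass. EIF2S1, the alpha subunit that stress kinases phosphorylate, had 39.97, 33.6 and 34.5 CPM in siControl and 32.8, 46.3 and 43.7 in siDelta2-4, which overlapped (log2 change 0.20 ± 0.20, SE, edgeR adjusted p = 0.593). EIF2S3, the GTP-binding gamma subunit, had 56 counts and was not tested. Of the exchange factor EIF2B, which reloads EIF2 with GTP, EIF2B2 had 5.85, 10.5 and 7.66 CPM in siControl and 10.3, 17.9 and 10.7 in siDelta2-4. Its log2 change of 0.69 ± 0.36 (SE) was the third highest of the members but rested on 72 counts, with overlapping groups (edgeR adjusted p = 0.254). It was 0.39 without the siDelta2-4 library of middle total and 0.93 without the siControl library of middle total. ENSG00000258646 overlaps EIF2B2 on the opposite strand, with 74 counts against 72 and a log2 change of 0.10. EIF2B3 had a log2 change of 0.25, and the 4 tested genes of the class had a median of 0.41.

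**Figure D3:**
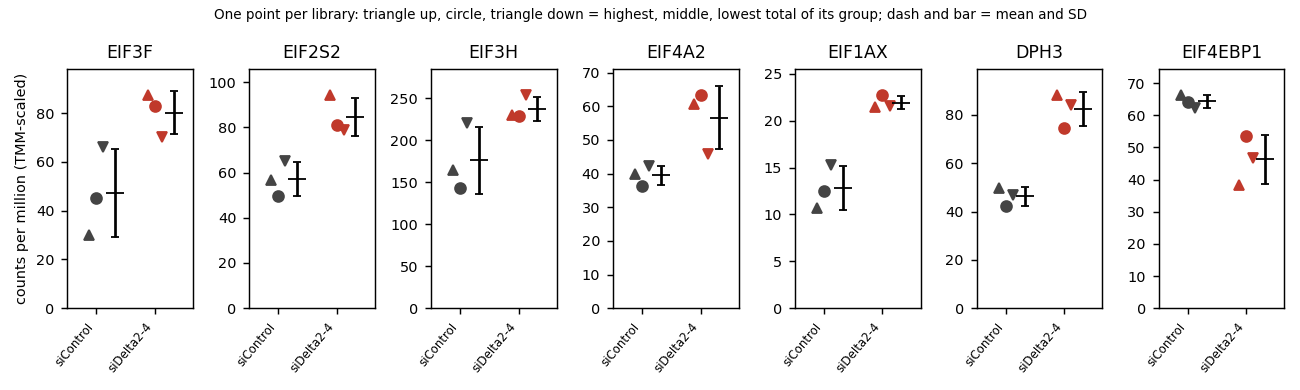
CPM (TMM-scaled, y axis from 0 with a scale of its own in each panel) of the 5 members called higher, and of DPH3 and EIF4EBP1 from the related lists, in each library. Symbols show the highest (upward triangle), middle (circle) and lowest (downward triangle) total of a group, and the dash and bar its mean and SD (n = 3). In each of the 7 panels the groups do not overlap, with siDelta2-4 higher in all but EIF4EBP1.

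EIF4A2 is a DEAD-box RNA helicase, the paralogue of EIF4A1, which unwinds mRNA as part of the cap-binding complex (chromosome 3, 186783205 to 186789897, plus strand). It had 39.97, 36.4 and 42.1 CPM in siControl and 45.9, 63.4 and 60.6 in siDelta2-4. The lowest siDelta2-4 value was just above the highest siControl value (39.5 ± 2.88 against 56.6 ± 9.41, SD, n = 3), and the log2 change was 0.53 ± 0.18 (SE, edgeR adjusted p = 0.0758). It passed in 8 of 18 alternatives, with a log2 change of 0.35 to 0.64, and only without the siControl library of lowest total or the siDelta2-4 library of lowest total among those that left a library out. RFC4, on the opposite strand, had 136 counts against 329 and did not pass (log2 change -0.17).

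EIF4A1 had 55.6, 51.8 and 64.2 CPM in siControl and 83.3, 73.1 and 58.3 in siDelta2-4. The siControl library of lowest total lay above 1 siDelta2-4 library, so the groups overlapped (log2 change 0.31 ± 0.17, SE, edgeR adjusted p = 0.268). The read-through gene SENP3-EIF4A1, on the same strand, had 87 counts against 433 for EIF4A1 (log2 change 0.29). EIF4E2, a cap-binding homologue that represses translation, had 12.7, 18.2 and 24.9 CPM in siControl and 25.3, 22.8 and 30.7 in siDelta2-4. These also overlapped (log2 change 0.50 ± 0.27, SE, edgeR adjusted p = 0.266). The log2 change of EIF4E2 was 0.27 without the siControl library of highest total and 0.74 without that of lowest total, where it passed (edgeR adjusted p = 0.0656). The cap-binding protein EIF4E itself and the helicase cofactor EIF4B had log2 changes of 0.23 and 0.22, neither past the threshold. All 5 tested EIF4 genes were above 0, with a median of 0.31.

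EIF1AX, the X-linked copy of EIF1A, stabilises the scanning ribosome (chromosome X, 20124525 to 20141838, minus strand). Its CPM was 10.7, 12.5 and 15.3 in siControl and 21.5, 22.8 and 21.5 in siDelta2-4. The siDelta2-4 libraries were almost equal and all above siControl (12.8 ± 2.32 against 21.9 ± 0.716, SD, n = 3). The fold change of 1.70 (log2 change 0.77 ± 0.28, SE, edgeR adjusted p = 0.0918) rested on 119 counts. It passed in 6 of 18 alternatives, and, of those that left out a library, only without the siControl library of lowest total. No gene opposite EIF1AX was counted.

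EIF1, the most counted initiation factor, had 1331, 1314 and 1271 CPM in siControl and 1322, 1222 and 1235 in siDelta2-4. The groups overlapped and the log2 change was -0.05 ± 0.08 (SE, edgeR adjusted p = 0.748), or 0.02 when libraries were scaled by their totals alone. EIF6, which keeps the large ribosomal subunit from joining too early, had 146, 166 and 148 CPM in siControl and 145, 175 and 169 in siDelta2-4, with a log2 change of 0.09 that turned to -0.05 once the length trend was removed. EIF5A, which carries the modified lysine hypusine, had a log2 change of -0.01 with 101 counts. Its siControl values ran from 3.90 to 21.1 CPM, and reads of the near-identical EIF5AL1 may be split from it.

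None of the tested genes with EEF symbols passed (5 of the EEF1 group, EEF2 and 2 methyltransferases), against 13.0% of all genes called in either direction. With so few genes tested, this does not set them apart from the initiation factors. EEF1A1 (chromosome 6, 73489308 to 73525587, minus strand) had 2017, 1769 and 1997 CPM in siControl and 2018, 2460 and 2129 in siDelta2-4. The groups did not overlap, but 2 of the siControl libraries were close to the lowest siDelta2-4 library (log2 change 0.19 ± 0.08, SE, edgeR adjusted p = 0.156). When libraries were scaled by their totals alone, EEF1A1 joined the called members. Its processed pseudogene EEF1A1P5 took 3757 counts, 26.9% of those of EEF1A1, with a log2 change of 0.25 (edgeR adjusted p = 0.108), and reads of the near-identical pair may be split. MTO1, on the opposite strand, had 10449 counts and a log2 change of 0.11 (edgeR adjusted p = 0.527).

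EEF1G, the gamma subunit of the EEF1B complex, had 1020, 851 and 1122 CPM in siControl and 1023, 1112 and 1155 in siDelta2-4, which overlapped (log2 change 0.14 ± 0.09, SE, edgeR adjusted p = 0.384, or -0.01 with the length trend removed). EEF1B2, the subunit that exchanges nucleotide on EEF1A, went the other way. Its CPM was 845, 825 and 851 in siControl and 796, 739 and 779 in siDelta2-4, so that every siDelta2-4 library was below siControl (840 ± 13.7 against 771 ± 29.4, SD, n = 3). The log2 change of -0.12 ± 0.08 (SE) had an edgeR adjusted p of 0.376. EEF1B2P3, its processed pseudogene, was lower (38.5 ± 4.00 against 24.6 ± 5.33 CPM, SD, n = 3; log2 change -0.65, edgeR adjusted p = 0.0659). EEF2 had 29.2, 37.4 and 45.02 CPM in siControl and 40.3, 52.8 and 43.0 in siDelta2-4, with overlap (log2 change 0.29 ± 0.20, SE, edgeR adjusted p = 0.411).

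The methyltransferases EEF1AKMT4, which acts on EEF1A, and EEF2KMT, which acts on EEF2, had 91 and 64 counts. EEF1AKMT4 had 15.6, 16.3 and 7.66 CPM in siControl and 15.9, 13.0 and 13.0 in siDelta2-4, with a log2 change of 0.08. EEF2KMT had 9.75, 10.5 and 11.5 CPM in siControl and 7.49, 8.13 and 9.98 in siDelta2-4, and its log2 change of -0.30 ± 0.35 (SE) was the lowest of the tested members (edgeR adjusted p = 0.659). Both overlapped between the groups. In all, 7 members were without overlap on the higher side, the 5 called members with EEF1A1 and EIF3G, and 1, EEF1B2, on the lower side, against 14.1% and 11.9% of all genes tested.

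Log2 fold changes were higher for longer transcripts. Spearman's rho between log2 fold change and the count-weighted length of a gene's models was 0.50 across the 31 members and 0.33 across all 3888 genes, which share libraries and are not independent. The median length of the tested members was 1874 nt, against 1143 nt over all genes. The 5 called members had a median of 3410 nt and the other 26 one of 1770 nt. With the trend over all genes removed, 202 genes were higher and 268 lower. Of the members, 1 was higher (EIF3F, log2 change 0.64, edgeR adjusted p = 0.0497) and 1 was lower (EIF1, log2 change -0.23, edgeR adjusted p = 0.0627). EIF2S2 then stood at 0.40 (edgeR adjusted p = 0.112), EIF3H at 0.25, EIF4A2 at 0.35 and EIF1AX at 0.60. The lengths are those of the annotated transcripts and not of the reads, and the part of RNA or cDNA integrity in this trend was not tested.

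**Figure D4:**
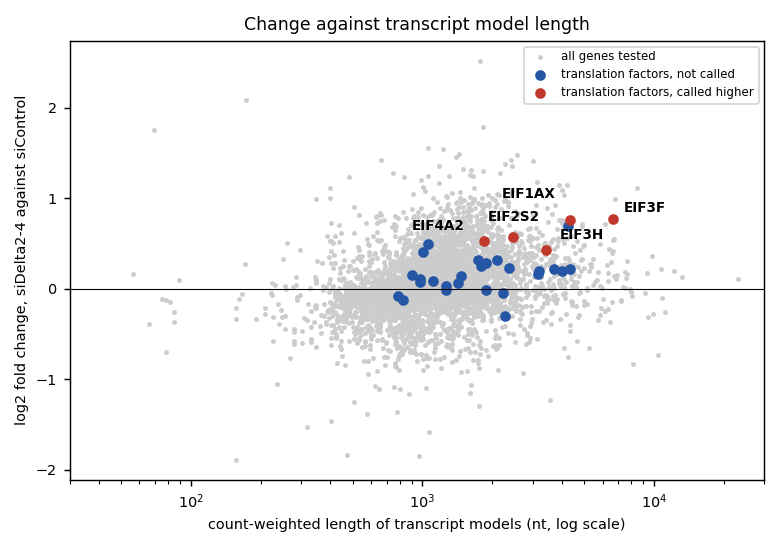
Log2 fold change of siDelta2-4 against siControl (y axis) by the count-weighted length of a gene's transcript models in nt (x axis, log scale). Grey points are all genes tested (1 gene with a shorter model lies outside the axis), blue points the 26 members not called and red points the 5 called. The called members lie at 1845 nt or more, and both clouds tilt upwards with length (rho 0.50 for members, 0.33 for all genes).

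The siControl library of lowest total stood apart from its group in the same measures. Its mean correlation of log2 CPM was 0.978 with both siControl and siDelta2-4. Its deviations from the mean of all libraries correlated with length at 0.12, against -0.32 and -0.33 in the other siControl libraries and 0.14 to 0.36 in siDelta2-4. Within siControl it held the highest value for all 5 called members and for 18 of the 31 tested, 58.1%, against 38.9% of all genes. Without it, 10 members were called, adding EEF1A1, EEF1G, EIF3E, EIF3M and EIF4E2, while the share of all genes called higher also went up, from 7.00% to 13.5%. Markers of the line were counted in both groups: the epithelial keratins KRT8 and KRT18 and the mesenchymal LGALS1, VIM and CAV1 were present. The other epithelial markers were low: KRT7 had 41 counts, EPCAM 13 and KRT19 1, and CDH1 was not counted. Summed epithelial markers ran from 280 to 295 CPM in siControl and 276 to 334 in siDelta2-4, and the mesenchymal list from 2339 to 2645 and 2339 to 2585. LGALS1 made up most of the mesenchymal sum, at 2367 ± 165 CPM in siControl and 2228 ± 139 in siDelta2-4 (SD, n = 3). VIM was at 132 ± 11.99 and 160 ± 7.07 CPM (SD, n = 3) without overlap (log2 change 0.27, edgeR adjusted p = 0.149), and the part of this in the members' values was not tested. None of the 8 markers listed for other cell types was counted. That list includes NKX2-1 and SFTPB, which belong to lung epithelium, and a gene counted in siControl alone would not appear. In bulk libraries fewer cells of a type and less RNA per cell cannot be told apart.

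Because each long read was assigned to a transcript model, the members could also be followed by isoform. Annotated models held 91.0% of the members' counts, against 59.5% over all annotated genes. Of the 64 member models tested, 5 were higher and 0 lower at an edgeR adjusted p under 0.1, against 3.95% and 2.97% of all models. At an unadjusted p under 0.05, 10 were higher and 0 lower, against 9.96% and 7.96%. The row minimum on siDelta2-4 counts can favour higher models, and the model tests were not repeated with that minimum on siControl too. The main annotated models of EIF3F (EIF3F-209, 92.9% of the gene's counts), EIF2S2 (EIF2S2-201, 93.0%) and EIF3H (EIF3H-209, 80.2%) were among them. Their log2 changes were 0.81, 0.60 and 0.43 (edgeR adjusted p = 0.0219, 0.0353 and 0.0761). EEF1A1-201, with 74.9% of EEF1A1 counts, was read 1533, 1351 and 1574 times in the siControl libraries and 1644, 2285 and 2060 times in those of siDelta2-4 (log2 change 0.24 ± 0.08, SE, edgeR adjusted p = 0.0863). The whole gene EEF1A1 did not pass. Without the siControl library of highest or middle total, 0 member models were called, and without that of lowest total there were 10. Without siDelta2-4 libraries the count was 4 (lowest), 1 (middle) and 1 (highest).

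The fifth model was a short form of EIF1 outside the annotation, TALONT000664072, of 2 exons and 331 nt, which matches the 5′ part of a known exon chain. It was read 9, 5 and 10 times in the siControl libraries and 14, 24 and 25 times in those of siDelta2-4, a log2 change of 1.19 ± 0.34 (SE, edgeR adjusted p = 0.0449). Its siControl counts also met the minimum of 5 set on siDelta2-4 for models outside the annotation. As a share of EIF1 reads this model was 0.659%, 0.365% and 0.754% in siControl and 0.992%, 1.60% and 1.55% in siDelta2-4. The groups did not overlap, and the model remained a small part of a gene whose main annotated form held 93.0% to 94.3% in every library. In the test of model usage within a gene, 0 of 14 members were called by edgeR's diffSpliceDGE, against 0.618% of genes. EIF1 was the 1 member with an unadjusted p under 0.05 (edgeR adjusted p = 0.182), against 9.63% of genes. Without the siControl library of lowest total, EIF1 and EIF3E were called. EIF3E-201 had 60.6%, 58.9% and 74.3% of EIF3E reads in siControl and 67.2%, 73.5% and 69.0% in siDelta2-4, so the groups overlapped.

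The changes were also set out by TOP start. EIF2S2 and EIF3H, called higher, have no entry and are left out here. Among the 24 tested members with a RefSeq start, the 9 with the run shown in capitals above had a median log2 change of 0.22, from -0.12 for EEF1B2 to 0.77 for EIF3F, and 2 were called. The 15 without it had a median of 0.15, from -0.05 for EIF1 to 0.77 for EIF1AX, and 1 was called. Over the 1740 tested genes with an entry, the 200 with a TOP start had a median of -0.01 and the rest one of 0.06. These medians and counts of calls are descriptions without a test. Over all 3888 genes tested 7.00% were called higher, and this share was not split by TOP start.

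Genes that act on the factors were read from pathway lists. EIF4EBP1, which binds EIF4E and blocks assembly of the cap complex, was lower after siDelta2-4. It had 66.3, 64.3 and 62.3 CPM in siControl and 46.8, 53.6 and 38.4 in siDelta2-4. The groups did not overlap (64.3 ± 2.02 against 46.3 ± 7.64, SD, n = 3; log2 change -0.48 ± 0.17, SE, edgeR adjusted p = 0.0868). It passed in 7 of 18 alternatives, and of those without a library only without the siControl library of lowest total. Of the 18 listed initiation regulators 4 were tested, and EIF4EBP1 was the 1 called, against 13.0% of all genes called in either direction. ATF4 and PDCD4 had log2 changes of 0.07 and -0.24, and EIF2AK4 was counted only in 7 unannotated models, so its value is not read as a level of the kinase.

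DPH3, which supplies electrons for the synthesis of diphthamide, the modified histidine of EEF2, was higher. It had 49.7, 42.2 and 46.9 CPM in siControl and 84.3, 74.8 and 88.2 in siDelta2-4. The siDelta2-4 libraries lay far above siControl (46.3 ± 3.81 against 82.4 ± 6.93, SD, n = 3; log2 change 0.83 ± 0.16, SE, edgeR adjusted p = 0.00162). It passed in all 18 alternatives, with a log2 change of 0.65 to 0.90. DPH5, a methyltransferase of the same pathway, had a log2 change of 0.78 ± 0.31 (SE, edgeR adjusted p = 0.121), and DHPS, which makes hypusine on EIF5A, one of -0.24. Of the 9 hypusine and diphthamide enzymes 3 were tested, with 1 higher and 0 lower, against 7.00% and 5.97% of all genes.

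No gene of the other lists passed, against 13.0% of all genes called in either direction, and few genes of these lists were tested. Of the poly(A)-binding proteins and partners 2 of 7 were tested (median log2 change 0.21), of termination and recycling factors 1 of 8 (-0.04), of mitochondrial translation factors 3 of 11 (0.04) and of cytosolic aminoacyl-tRNA synthetases with their scaffold 6 of 22 (0.17).

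**Figure D5:**
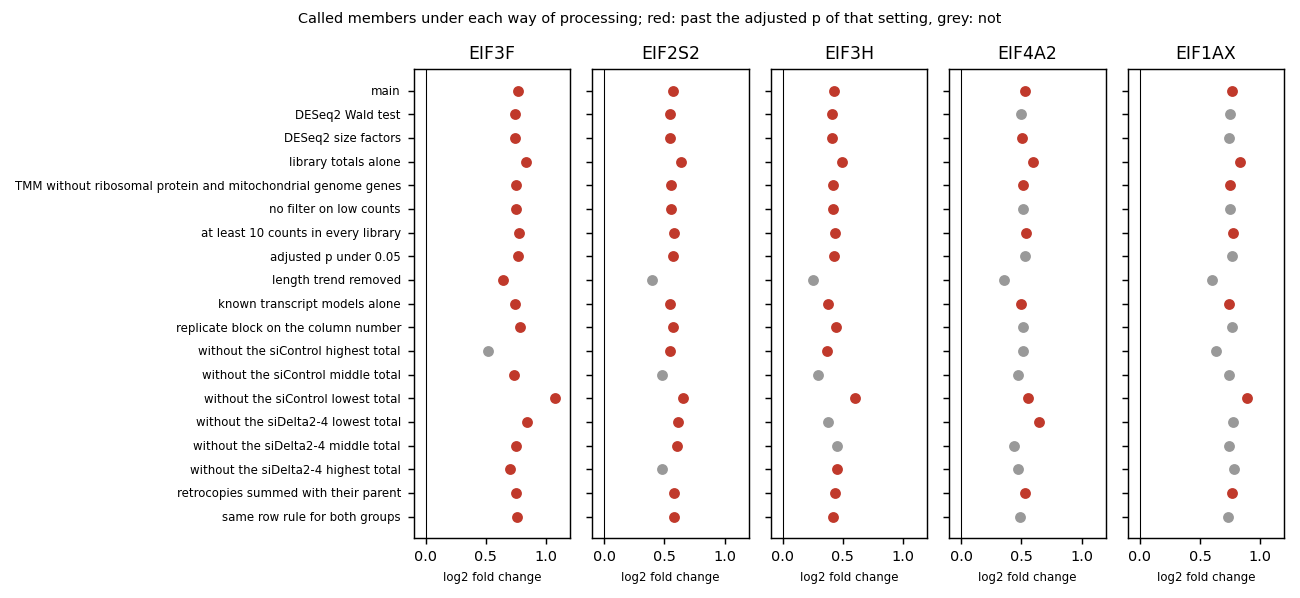
Log2 fold change (x axis) of the 5 called members under the reported analysis (main) and 18 alternatives (y axis), with red points past that setting's adjusted p and grey points not. Every point lies above 0. EIF3F is red in 17 of the 18 alternatives, EIF2S2 in 15, EIF3H in 14, EIF4A2 in 8 and EIF1AX in 6.

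Across the 18 alternative analyses the 5 called members stayed above 0 in each, as the plot by setting shows. EIF3F ranged from 0.52 to 1.07, EIF2S2 from 0.40 to 0.65, EIF3H from 0.25 to 0.60, EIF4A2 from 0.35 to 0.64 and EIF1AX from 0.60 to 0.89 on the log2 scale. The called members had 119 to 1400 counts, and EIF1AX, with the fewest, was lost most often.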

How the data were processed

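As the labels and published methods describe, PCR-cDNA libraries were sequenced on 1 Nanopore flow cell for 72 h. The authors aligned reads to GRCh38 (minimap2 2.14, SAMtools 1.13 in the submitters' processing notes), corrected them with TranscriptClean and assigned them to models with TALON and Gencode. The values the authors deposited were raw counts per transcript model. Reads without molecular identifiers are not independent molecules.

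The siRNA named in each column gave its group, and a library is named by its total within its group. Counts were summed per gene and tested with edgeR 4.0.16 (R 4.3.3): filterByExpr, TMM, a quasi-likelihood fit of 2 groups with no covariate, two-sided, adjusted p under 0.1. CPM used TMM-scaled totals. Transcript models and usage (diffSpliceDGE) were fitted likewise, and scripts were tested on simulated data. DESeq2 1.42.0, other scalings, filters, a length correction (loess), a replicate block and leaving out each library were alternatives. Annotation was Gencode 44, and start sequences came from RefSeq.

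Genes named were those called, the 2 most counted per class, the 3 highest and 3 lowest uncalled log2 changes, genes with a called model, genes sharing a locus, and called genes of the lists. The members and lists were chosen with earlier results of these data known.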

Additional observations from a re-analysis of the deposited data

How the results depend on the processing

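The 5 members called higher became 3 with DESeq2's Wald test, with no filter on low counts and at an adjusted p under 0.05. They also became 3 with the replicate block on the column number, and with the same row rule for both groups (chosen after seeing the data). That row rule put the minimum counts required of siDelta2-4 on siControl as well. The 5 members became 1 with the length trend removed, where 1 member was lower, against 0. Leaving out a library gave 1 to 10 members higher, 0 to 0 lower, 0 to 10 models called and 0 to 2 members with changed usage. At an adjusted p under 0.05, 3 models were called. The difference in share of EIF1, EIF5 and EIF6 was 0.00490 percent of counts, and -0.00193 against the TMM-scaled total. Log2 changes of uncalled members that changed sign were EEF1G at -0.0081, EIF6 at -0.047 and EIF3K at 0.012 (length trend removed), EIF1 at 0.017 (library totals alone), and EEF1AKMT4, which ran from -0.22 to 0.25 over the libraries left out and was negative at -0.22 and -0.02 (without the siControl or the siDelta2-4 library of lowest total). The causes were not tested beyond fewer samples or a stricter threshold. Scaling by library totals alone moved all calls to 361 higher and 152 lower, from 272 and 232, and the median of all genes from 0.03 to 0.09. The column numbers are in no label, and same-numbered libraries did not deviate together (correlations 0.04, -0.14 and -0.08), so pairing was not assumed. Retrocopies summed with their parent (also chosen after seeing the data) left the count at 5. Nothing is said here of a change in the 20 members with too few counts to test.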
